A study of Homo sapiens with 5 samples.

Results

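Regions of open chromatin found in every one of 5 human B-lineage cell lines are described here. All DNase-seq peaks on chromosomes 1 to 22 were pooled, and peaks that shared at least 1 bp were merged. A merged region was kept when it held at least 1 peak of L1236, L428, L591, Reh and Namalwa. This gave 2991 shared regions among 58006 merged regions (5.16%), made up of 18063 peaks. The regions were chosen by the presence of called peaks, so presence, and how strong or wide shared regions were against other regions, are given as descriptions, with no test. The rule treated the 5 lines alike, and tests were made only between Hodgkin and non-Hodgkin lines within the shared regions.

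L1236, L428 and L591 are lines from Hodgkin lymphoma, Reh is a pro-B lymphoblastic leukaemia line and Namalwa is a Burkitt lymphoma line. The last 2 are placed together as non-Hodgkin by the labels, although they come from different diseases. All lines were untreated and at passage 7. After a titration for each line, the digestion chosen was 12 U/ml DNase I for Namalwa and L591 and 6 U/ml for the other lines. Each line gave 1 library and 1 peak list, so the lines are the replicates of their group, no error within a line exists, and p-values measure only the spread between lines. The tests take the libraries as independent. For Reh and Namalwa this could not be checked from peak lists, and nearly all Namalwa regions held a Reh peak. The tumour origin of the lines was not checked against marker genes, because no gene annotation of hg18, the build of the files, was used here.

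DNase I cuts DNA where nucleosomes are displaced, and fragments released by light digestion mark promoters, enhancers and insulators. Sites open in unrelated cell types are typically promoters of genes that most cells use, often at CpG islands, and sites bound by the insulator protein CTCF. Enhancers are more often restricted to a lineage. Hodgkin tumour cells are B cells by origin but have shut down many B cell genes, whereas pro-B leukaemia and Burkitt lymphoma cells keep them on.

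The lists differed in length, with 22758 to 27502 peaks in the 4 longer lists and 5643 in Namalwa. Read depth is not given, so it is unknown how far depth sets these lengths. Shared regions took 63.3% of Namalwa peaks (exact Clopper-Pearson 95% interval 62.0 to 64.6, counting error only) and between 13.0% of L591 peaks and 16.5% of L428 peaks. Per line they took 11.6% of the regions of Reh, 11.9% of L591, 12.6% of L1236, 14.1% of L428 and 60.5% of Namalwa. The Namalwa list, with 4944 regions, thus bounded the number of shared regions more tightly than any other.

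The strongest peaks of a line lay in shared regions far more often than its weaker ones. Peak strength is the deposited score, the area under the peak, which has no scale common to the lists and was used as a rank within a list. Among the 1000 highest-scoring peaks of a list, the share in shared regions was 90.3% for Namalwa and 87.3% for Reh, and among the Hodgkin lines 76.5% for L591, 66.4% for L428 and 39.1% for L1236 (mean 71.9% ± 20.6, SD, n = 5 lines). At this cut the Hodgkin lines were all below both non-Hodgkin lines, and L1236 was the lowest. Among the leading 100 peaks the share ran from 77.0% in L1236 to 98.0% in Namalwa, and L591 and Reh were level at 96.0%. For peaks ranked 21001 to 22000 in the 4 longer lists it was between 2.2% (Reh) and 5.8% (L1236).

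**Figure D1:**
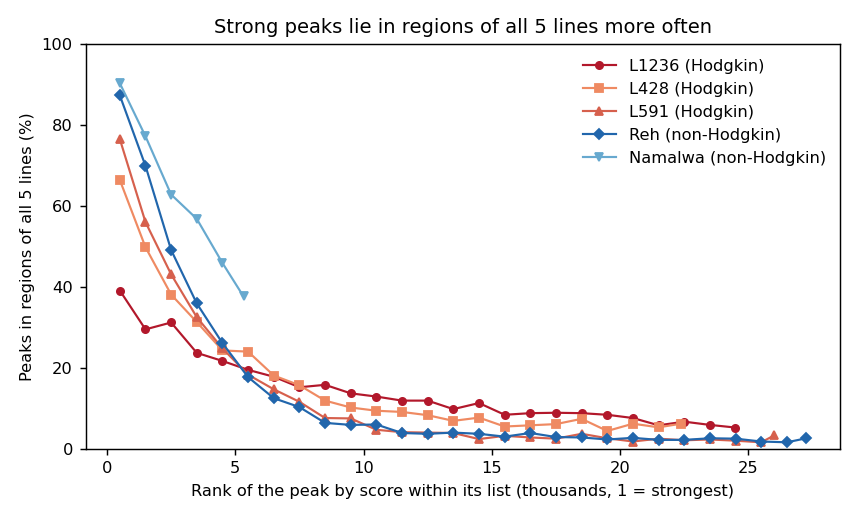
Percentage of peaks that lie in regions of all 5 lines (vertical axis) against the rank of the peak by score within its list (horizontal axis), in steps of 1000 peaks, 1 line of points per cell line. The first points run from 39.1% in L1236 to 90.3% in Namalwa, and every list ends lower than it starts.

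Median strength was higher the more lines shared a region. In Reh the median score percentile, counted among all regions of that line, was 30.6 for regions of Reh alone, 52.1 for regions of 2 lines, 62.1 for 3, 75.1 for 4 and 92.6 for shared regions. In L591 it went from 28.0 to 90.4, in L428 from 27.3 to 86.2 and in L1236 from 37.5 to 78.9. Namalwa went from 7.09 to 63.5 (mean for shared regions over the lines 82.3 ± 11.8, SD, n = 5). With every list cut to 5643 peaks, the length of the Namalwa list, the shared regions were formed anew and numbered 1169. Over this smaller set the median was 80.8 in Namalwa and lowest in L1236, at 63.7. The sets of regions differ, so an effect of list length on the Namalwa value was not tested. Shared regions were not all strong. The lower quartile of their percentiles was 57.2 in L1236 and 37.8 in Namalwa, and single shared regions had percentiles as low as 0.146 in L1236 and 0.789 in Reh.

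Which line was missing from the regions of exactly 4 lines shows where sharing stopped. Of 3208 such regions, 2315 lacked Namalwa, 691 lacked L1236, 153 lacked L428, 44 lacked L591 and 5 lacked Reh. Read the other way, a region with peaks in the other 4 lines also had a Reh peak in 99.8% of cases (exact 95% interval 99.6 to 99.9) and an L591 peak in 98.6% (98.1 to 98.9). The share was 95.1% (94.3 to 95.9) for L428, 81.2% (79.9 to 82.5) for L1236 and 56.4% (55.0 to 57.7) for Namalwa. L428, whose list is shorter than that of L1236 (22758 against 24971 peaks), was thus absent less often. For Reh the other 4 lines include Namalwa, and 98.7% of all Namalwa regions held a Reh peak. The 99.8% for Reh is therefore close to what that overlap alone gives.

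The share with a peak of the remaining line was higher where the others were stronger. Regions of L1236, L428, L591 and Reh were ordered by their lowest percentile in these lines and cut into 4 groups of equal size. Namalwa had a peak in 30.4% of the weakest group (exact 95% interval 27.9 to 32.9), 44.0% and 63.3% of the middle groups and 87.9% of the strongest (86.0 to 89.6). L1236, given the other 4, went from 63.8% to 98.5%. In the strongest group L428, L591 and Reh were present in 99.6%, 99.9% and 100.0%. With the depth unknown, a site without a Namalwa peak is one not detected, and is not shown to be closed.

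The 1 bp rule admitted few borderline cases. The median overlap that held a shared region together was 280 bp, and 10 of 2991 regions were held by 50 bp or less. The 3 held by 10 bp were chr7:106088211-106089340, chr10:135372341-135373540 and chr22:18221731-18223650. The next 2 were chr1:90232831-90233890 and chr4:49001041-49002330, held by 20 bp. Just outside, 59 of 3208 regions of 4 lines had a peak of the missing line within 200 bp. The nearest were chr7:47985421-47985970, chr15:89279091-89279880 and chr19:54859551-54860130, each directly next to an L1236 peak without sharing a base with it. In chr1:38097631-38098270 and chr7:138676081-138677360 the L1236 peak began or ended 20 bp away. All 5 nearest misses were therefore regions without L1236. Of all 59, however, 27 lacked Namalwa, 20 lacked L1236, 10 lacked L428 and 2 lacked L591.

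Joining by overlap does not require a base open in all lines, but nearly all shared regions had one. A base covered by peaks of all 5 lines was present in 2880 of 2991 regions (96.3%, exact 95% interval 95.5 to 96.9). The covered stretch had a median of 280 bp (quartiles 190 and 390), against a median of 950 bp for the merged region. In 2533 regions there was 1 such stretch and in 347 there were 2 or more. The other 111 regions were chains of neighbouring peaks without a common base.

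The chains turned mainly on Namalwa and L1236. Without Namalwa, 67 of the 111 had a base common to the other 4 lines, without L1236 66 had one, and without L428 28. Without Reh 5 had one and without L591 3. The widest, chr1:148799991-148803430, held 3 peaks of L1236, 2 of L428, 2 of L591, 4 of Reh and 1 of Namalwa. It was chosen after its values were seen, as an example of a stretch in which neighbouring elements were joined.

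Peaks at shared regions were widest in L591 and narrowest in Namalwa. Their summed width per region had a median of 830 bp for L591 and 750 bp for Reh. It was 550 bp for L428, 490 bp for L1236 and 360 bp for Namalwa. Single peaks over a whole list had medians of 290 to 450 bp. The 2 measures differ, since 256 to 546 shared regions per line held 2 or more of its peaks. L591 was the widest in 1693 regions and Namalwa in 4. In the 1799 regions with exactly 1 peak of each line (60.1%), the common stretch filled a median of 86.2% of the Namalwa peak, 65.9% of the L1236 peak, 57.9% of the L428 peak, 44.6% of the Reh peak and 40.7% of the L591 peak. In the median region, most but not all of the Namalwa peak thus lay inside the peaks of every other line.

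Peaks of L1236 sat slightly to the right of those of the other lines, in the direction of rising coordinates. In the regions with 1 peak of each line the midpoint of the L1236 peak lay on average 13.4 to 14.9 bp right of that of each other line. The other 6 pairs differed by less than 2 bp on average. L1236 lay to the right in 54.4% to 55.9% of regions and to the left in 41.4% to 43.5%, so the offset is a shift of the mean within a wide spread of single regions. The L1236 list is also the only list whose name lacks the mark qcTrimmed. Whether this difference in preparation contributes to the offset or to the lower sharing of L1236 was not tested.

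**Figure D2:**
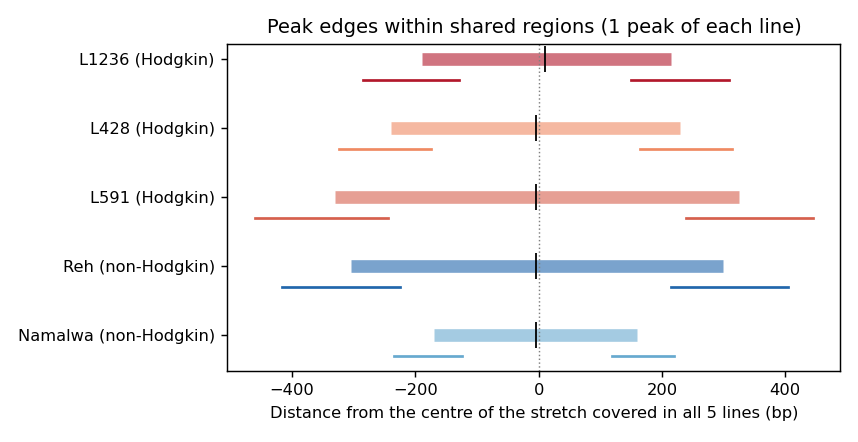
Position of peaks in the 1760 regions with 1 peak of each line and a common base, in bp from the centre of the stretch covered in all 5 lines (horizontal axis), by cell line. Bars run from the median start to the median end, thin lines span the quartiles of starts and ends, and black ticks mark the mean midpoint, which is 10.6 bp right of the centre in L1236 and 3.90 to 4.98 bp left of it in the other lines.

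A small set of shared regions held much of the summed score. Score per bp was compared with the upper 1% of all regions of a list, which began at 102 in L1236 and at 21.1 to 35.1 in the others. In 34 shared regions all 5 lines were in that upper 1%, and in 380 at least 1 line was. The 34 regions took 54.4% of the summed score of Namalwa on these chromosomes, 41.0% of that of L1236 and 25.2% to 33.6% of that of the other lines. Their median score per bp was 1680 in L1236 and 157 in Namalwa, whereas shared regions outside the upper 1% of every list had 23.2 and 7.44. Whether reads at such regions map to more than 1 place was not tested, and these peaks need not mark open chromatin.

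The strongest was chr1:554211-560270, which ranked first in every list. Its peaks were 6060 bp wide in L1236 and L591 and 6040 bp in the other lines. Its score per bp was 14414 for L1236, 5432 for L428 and 8567 for L591, with 1951 for Reh and 1450 for Namalwa. Over the mitochondrial genome the values were 32345, 22625, 29192, 6577 and 4847 in the same order of lines. These values have no scale common to the lists, and within each list the region was below the mitochondrial genome. This region alone held 9.51% of the score of Reh and 19.2% to 24.1% of that of the other lines.

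The other leading regions by lowest percentile were long, and 7 of the 9 lay within 1 Mb of the longest stretch of their chromosome without any peak. These were chr16:44943201-44973520, the widest shared region at 30320 bp, and chr10:41702281-41717400, chr2:91668861-91690000, chr6:58881471-58888220, chr7:61604481-61611950, chr1:121182221-121187060 and chr10:41916591-41920660. Away from such stretches lay chr5:134286821-134292160, with a score per bp of 3934 in L1236 and 243 in Namalwa, and chr11:10485891-10488450, with 2573 and 265. Of the 17 shared regions over 5000 bp, 12 lay as near to such a stretch. On some chromosomes that stretch spans the centromere and on others it does not, and centromere positions were not used here. The other widest regions were chr16:44974071-44993160, chr8:46958021-46976830 and chr17:22168561-22187220.

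Very strong regions of up to 1000 bp had closely matching edges, with starts and ends that differed by 10 to 100 bp in sum over the 5 lines. The leading one, chr13:108874351-108874800, was at rank 99.4 or above in each line, where rank is the percentage of the 2991 shared regions with a score at or below it. The next were chr2:149355651-149356000, chr3:198109891-198110280, chr1:91625251-91625810 and chr2:49310151-49310580. The others by this rule were chr17:48537981-48538850, chr2:87905411-87906090, chr5:79981481-79981840, chr7:45257961-45258380 and chr8:100577151-100577450. All 10 were in the upper 1% of score per bp of every list. The regions on chromosomes 2 (149355651), 5 and 8 were also among the 5 named for the closest edges, where that sum was 10 bp. These 5 are the first in chromosome order of 6 regions tied at that value. The other 2 of them, chr1:37849821-37850110 and chr3:25483881-25484040, had a score per bp of 3961 and 543 in L1236 against 20.4 and 12.6 in Namalwa. Over the 1799 regions with 1 peak of each line, the peaks of a pair of lines had the same start in 2.89% to 8.34%.

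Regions in the upper 1% of score per bp of any list were then left out, a choice made after the values were seen. The steadiest strong sites that remained had common stretches above the upper quartile of 390 bp of all shared regions. The region chr12:52959381-52961390 had Hodgkin ranks of 96.8 (L1236), 97.8 (L428) and 97.7 (L591) and non-Hodgkin ranks of 96.5 (Reh) and 94.6 (Namalwa), and 980 bp of it were covered in all lines. The region chr19:5854511-5855970 had ranks of 93.4 to 96.7 and a common stretch of 930 bp. These regions and the next 3, chr19:59332121-59333390, chr1:210274591-210276050 and chr3:15617741-15618710, had a single peak in each line, a common stretch of 600 bp or more and a score per bp between 48.9 and 61.4 in L1236. Among regions of up to 1000 bp, chr19:18175591-18176470 and chr19:11406681-11407630 led by lowest percentile, ahead of chr1:167721451-167722340, chr1:150029261-150030150 and chr12:2791741-2792610.

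Ranks of a shared region varied widely between lines. The range over the 5 lines had a median of 39.4 percentage points (quartiles 26.4 and 54.8). It was 10 points or less in 169 regions (5.65%) and over 80 points in 92 (3.08%). In the upper 10% of every line were 3.44% of the regions, while 640 regions reached it in at least 1 line, and 4 were in the lower 10% of every line. Of the 300 shared regions in the upper 10% of Reh, 76.0% were in that of Namalwa and 50.0% to 54.0% in that of each Hodgkin line. L428 and L591 had 66.3% of theirs in common. L1236 stood apart from the rest most often, with a rank over 40 points above all other lines in 40 regions and over 40 points below all others in 48. The corresponding counts were 11 and 22 in L428, 2 and 13 in L591, 4 and 4 in Reh, and 5 and 25 in Namalwa.

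**Figure D3:**
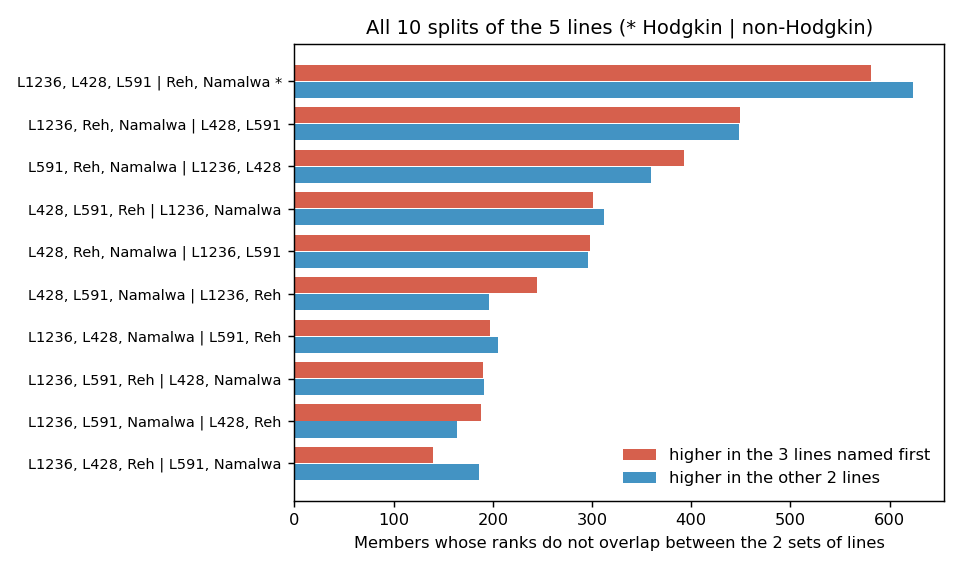
Number of shared regions whose ranks do not overlap between 3 lines and the other 2 (horizontal axis), for each of the 10 splits of the 5 lines (vertical axis, sorted by the sum of both bars). The labelled split of Hodgkin against non-Hodgkin lines, marked with an asterisk, has the longest bars in both directions, 581 and 624, and the next has 449 and 448.

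The main comparison asked whether sites open in all lines differed in strength between Hodgkin and non-Hodgkin lines. In 581 shared regions all 3 Hodgkin lines ranked above both non-Hodgkin lines (19.4% of 2991), and in 624 both non-Hodgkin lines ranked above all 3 Hodgkin lines (20.9%). These are the highest counts of the 10 splits of the lines into 3 and 2 in either direction (one-sided exact permutation p = 0.1 for each, the smallest the design allows). The next split, L428 and L591 against the other lines, gave 448 and 449, and dividing the lines by DNase I concentration gave 140 and 186. Ranks exist only for shared regions, so the other splits serve as the background. Since ranks are relative, regions that rise in a group push others down in it, and counts in the 2 directions are not independent.

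Most differences were modest in size. The gap between the nearest lines of the 2 groups had a median of 9.03 points for regions higher in the Hodgkin lines and 9.12 points for the opposite. It exceeded 40 points in 19 and 18 regions. Measured by peak width in place of score, the counts fell to 351 and 373, and 2 and 3 of the 10 splits were as large (exact permutation p = 0.2 and 0.3). Without Namalwa, 867 regions (29.0%) were lower in Reh than in all Hodgkin lines. Of the 4 lines, 2 had counts as large when set against the other 3. In the opposite direction Reh ranked above all Hodgkin lines in 858 regions (28.7%), the highest of the 4 counts. Among 4 lines some line must rank lowest in each region and some line highest, so much of both counts is given in advance. Of the Namalwa regions 98.7% held a Reh peak, against 19% of the Reh regions that held a Namalwa peak. The second share is bounded by list length, with 4944 regions of Namalwa and 25726 of Reh. Overlap of the Namalwa regions with the Hodgkin lists was lower: 82.6% for L591, which had 25224 regions, 77.0% for L428 and 66.6% for L1236. Regions of Namalwa alone numbered 36, against 5193 to 12641 regions of a single line in the other lists.

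The groups were also compared within each DNase I concentration. At 6 U/ml, L1236 and L428 both ranked above Reh in 1011 regions (33.8%) and below it in 1054 (35.2%). Some line at this concentration must rank lowest in each region, and some line highest. An even division among these lines would give shares close to these values, so they do not show a group difference. At 12 U/ml, L591 ranked above Namalwa in 1508 regions (50.4%) and below it in 1481 (49.5%). A single line of each group at 12 U/ml must lie on either side, so these values carry no test.

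The labelled split also came first by the correlation of scores. Spearman's rho across the 2991 regions, which share their libraries and are not replicates, was highest in the pair of Reh and Namalwa, at 0.778, followed by L591 with L428, at 0.751. L1236 reached 0.581 with L591, 0.521 with L428, 0.470 with Reh and 0.438 with Namalwa. L591 with Reh, at 0.641, exceeded both pairs of L1236 with another Hodgkin line. The mean was 0.658 within groups and 0.512 between them, a difference of 0.145 that was the highest of the 10 splits (one-sided exact permutation p = 0.1, the smallest possible). The next split, L591, Reh and Namalwa against L1236 and L428, gave 0.0816. By peak width in place of score the difference was 0.0565, and 2 of the 10 splits were as large (exact permutation p = 0.2). Without L1236 it was 0.223, and without Namalwa 0.0719, where 2 of 4 splits were as large (exact permutation p = 0.5).

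The positions of peaks were compared in the same way. The mean distance between midpoints was 129 bp within groups and 126 bp between them. The difference of -2.79 bp was reached by 6 of the 10 splits (one-sided exact permutation p = 0.6), so a larger distance between groups than within them was not seen.

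Among regions with 1 peak of each line, the widest gap in favour of the Hodgkin lines was at chr2:63668731-63670100. The ranks of L1236, L428 and L591 there were 92.5, 92.6 and 88.6, against 28.0 in Reh and 28.0 in Namalwa. The Hodgkin peaks there were 1050 to 1300 bp wide, the Reh peak 990 bp and the Namalwa peak 280 bp, and 280 bp were covered in all lines. A peak was called there in each line, and the groups differed in its strength.

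At chr15:63383641-63385040 the ranks were 64.0, 62.3 and 76.7 in L1236, L428 and L591, 1.54 in Reh and 11.8 in Namalwa. At chr7:5403181-5404230 they were 50.0, 75.2 and 64.6 against 2.36 and 2.04. At chr12:928621-929820 they were 74.2, 79.2 and 69.7 against 22.7 and 7.94. In each case both non-Hodgkin lines were at rank 22.7 or below and all Hodgkin lines at 50.0 or above.

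Similar gaps of 38.6 to 45.5 points were found at chr3:47529681-47530440, chr14:63177731-63179390, chr14:59628011-59629190 and chr9:35804871-35805700. At chr14:63177731-63179390 the Hodgkin ranks were 94.2, 93.4 and 95.6, with 48.8 in Reh and 22.6 in Namalwa. The remaining 2 of the 10 differed in kind. The regions chr11:102785491-102785760 and chr7:142054791-142055110 were 270 and 320 bp wide, with a score per bp in L1236 of 593 and 1128 and in the upper 1% of 3 lists.

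**Figure D4:**
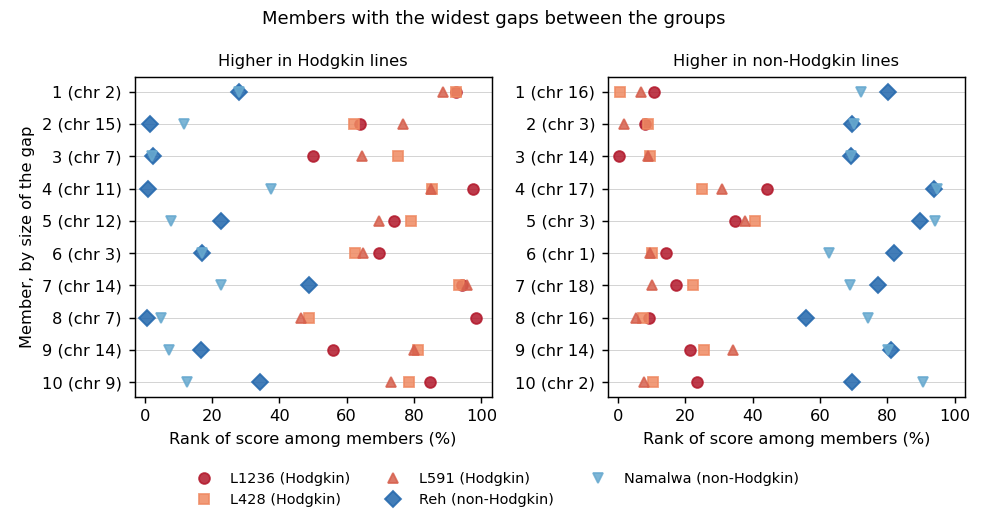
Rank of the score among the 2991 shared regions in percent (horizontal axis) in each cell line, for the 10 regions with 1 peak of each line and the widest gap in favour of the Hodgkin lines (left) and of the non-Hodgkin lines (right), labelled by chromosome. In the first region on the left the Hodgkin lines lie between 88.6 and 92.6 and both non-Hodgkin lines at 28.0.

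With 1 peak of each line, the widest gap in favour of the non-Hodgkin lines was at chr16:1332431-1333620. Its rank was 80.2 in Reh and 72.3 in Namalwa, against 10.8 in L1236, 0.752 in L428 and 6.92 in L591. The Reh peak covered 1190 bp and the Namalwa peak 690 bp, whereas the Hodgkin peaks were 200 to 570 bp wide. Here even Namalwa, the line with the narrowest peaks in general, had a wider peak than every Hodgkin line.

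At chr3:184316441-184317020 Reh and Namalwa had ranks of 69.6 and 70.0, and the Hodgkin lines 8.06, 8.96 and 1.71. At chr14:23727281-23728150 the ranks were 69.2 and 69.3 against 0.468, 9.43 and 8.81. At chr17:53282081-53283120 they were 93.9 and 94.9 against 44.4, 25.1 and 30.9. The last was strong in the non-Hodgkin lines and of middling strength in the others.

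Chromosome 3 gave another of the 10, chr3:185563321-185564380, with ranks of 89.7 and 94.0 in Reh and Namalwa and 34.9 to 40.8 in the Hodgkin lines. The others were chr1:6008481-6009740, chr18:45267411-45268160, chr16:33866581-33867120, chr14:76633531-76634550 and chr2:132742021-132742420, with gaps of 46.1 to 48.4 points. Of all 20 named regions, 3 were in the upper 1% of score per bp of any list.

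Shared regions near the peak-free stretches were unevenly divided between the directions. Of the 116 within 1 Mb of the longest such stretch, 52 were higher in the non-Hodgkin lines (8.33% of the 624) and 10 in the Hodgkin lines (1.72% of the 581). The other 54 were higher in neither group (3.02% of 1786). The 116 were 3.88% of all shared regions, and 35 of them lay on chromosome 4. With these regions left out and the other 2875 ranked anew, 591 were higher in the non-Hodgkin and 544 in the Hodgkin lines.

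The direction also depended on the chromosome. On chromosome 2, 70 of 205 shared regions (34.1%) were higher in the Hodgkin lines and 15 (7.32%) in the non-Hodgkin lines. Chromosomes 12, with 55 against 15 of 158, and 6, with 38 against 11 of 124, leaned the same way. Chromosome 14 had the highest share the other way, with 50 of 81 (61.7%) higher in the non-Hodgkin lines and 13 in the Hodgkin lines. On chromosome 7 the counts were 76 against 24 of 209, and on chromosome 1 139 against 46 of 439. Chromosome 19, with 53 against 44 of 312, was balanced.

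Median ranks show the same by line. On chromosome 2 they were 54.7 in L1236, 64.0 in L428 and 68.0 in L591, against 41.2 in Reh and 41.2 in Namalwa. On chromosome 7 they were 45.5, 51.5 and 48.4 against 65.4 and 63.6, and on chromosome 14 48.4, 47.9 and 49.5 against 63.4 and 62.0. The groups did not overlap on 16 of 22 chromosomes, with the Hodgkin lines higher on 9 and the non-Hodgkin lines on 7. No other split separated more than 12 chromosomes (one-sided exact permutation p = 0.1, the smallest possible). Single lines stood out too, with a median rank of 11.9 for L428 on chromosome 13, which held 30 shared regions, against 33.9 to 58.6 in the other lines.

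**Figure D5:**
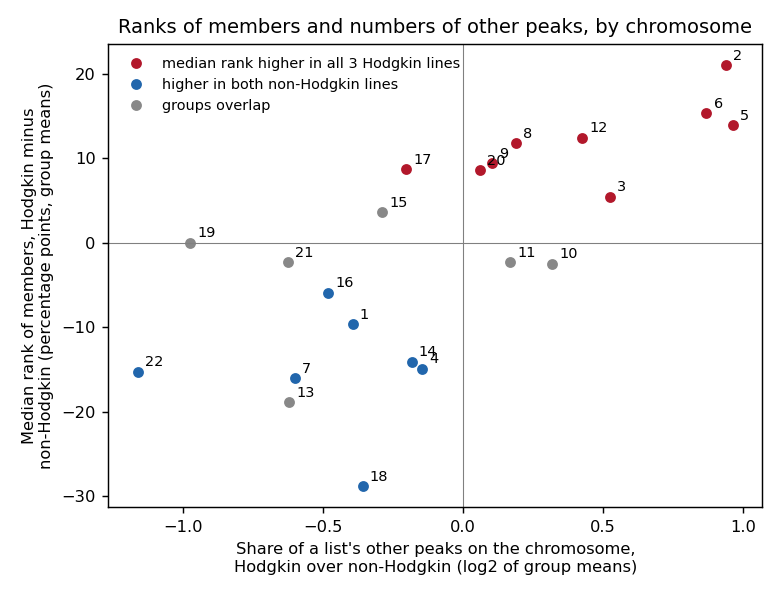
Difference in the median rank of shared regions, Hodgkin minus non-Hodgkin group means in percentage points (vertical axis), against the log2 ratio of the group means of the share of all other peaks of a list on that chromosome (horizontal axis), 1 point for each of 22 chromosomes, labelled by number. Chromosomes 2, 5 and 6 lie at the upper right, 7, 13 and 22 at the lower left, and 18 is the lowest.

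The number of other peaks moved with these ranks. Chromosome 2 held at least 9.90% of the peaks outside shared regions in each Hodgkin line, 6.44% in Reh and 4.49% in Namalwa. Chromosome 7 held 6.39%, 6.39% and 4.73% against 7.62% and 10.1%. Across the 22 chromosomes the rank difference and the log2 ratio of shares had a Spearman's rho of 0.719 and a Pearson's r of 0.707, with the same sign on 17. The points share their libraries, so no p is given. Chromosome 19 was an exception, with a ratio of -0.97 on the log2 scale and a rank difference of 0.0529 points. With scores ranked within each chromosome, an alternative added after the data were seen, 519 regions were higher in the Hodgkin lines and 534 in the non-Hodgkin lines, again the highest of the 10 splits (exact permutation p = 0.1).

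Shared regions were most frequent on chromosome 19, the most gene-dense human chromosome. There 312 of 2629 merged regions were shared (11.9%), against 6.49% on chromosome 1, 6.42% on chromosome 16 and 2.47% on chromosome 18, the lowest. Chromosome 19 held 10.4% of shared regions but 4.53% of all merged regions. Of the regions of a single line, those on chromosome 19 were shared in 27.8% for L1236, 33.5% for L428, 26.1% for L591 and 17.3% for Reh, and those on chromosome 18 in 5.88% to 11.8%. Namalwa had 65.0% on chromosome 19 and 37.9% on chromosome 18. Regions of exactly 4 lines were likewise most frequent on chromosome 19 (8.63%).

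Along the chromosomes, shared regions were found in 1190 of 2620 windows, each 1 Mb long and with at least 1 merged region. They were alone in 550 windows, and the 159 windows with 5 or more held 39.9% of them. Windows with the most shared regions were at 153 to 154 Mb of chromosome 1 and at 54 to 55 Mb of chromosome 19, with 17 each, and at 154 to 155 Mb of chromosome 1, with 16. The other leading windows, at 48 to 49 Mb of chromosome 4 with 17 and at 49 to 50 Mb with 16, adjoin a peak-free stretch that begins at 49.4 Mb. The median distance to the next shared region was 91.5 kb (quartiles 25.4 and 318), close to the 104 kb between regions of exactly 4 lines and longer than the 52.2 kb between regions of exactly 3, which are more numerous at 5787. Within 2 kb of another lay 179 shared regions (5.98%).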

How the data were processed

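DNase-seq peak lists of 5 cell lines were analysed, with the Hodgkin and non-Hodgkin groups taken from the labels. Per the submitters' processing notes, reads were mapped with Bowtie 1.00 to hg18, and per the columns of the files they were elongated and counted in bins of 10 bp. Not given in the sources used here are the read depth, the peak caller and its threshold. Each deposited score is the area of a peak as the authors computed it, with no stated scaling to depth, so scores were ranked within a list. Lists were made for each line, and 4 carry the mark qcTrimmed. Positions are 1-based hg18, as the files give them.

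Peaks on chromosomes 1 to 22 sharing at least 1 bp were merged. A line's score in a region is the sum of its peaks there. Percentiles are among all regions of a line and ranks among the 2991 shared regions. Group comparisons used a one-sided exact permutation test that enumerates the 10 ways to divide the lines into 3 and 2, where 0.1 is the smallest p. Shares have exact Clopper-Pearson intervals at 95%, which cover counting error only.

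Shared regions, lists and tests were chosen with earlier results of these data known. Named regions followed fixed rules: the highest lowest percentile, with and without a limit of 1000 bp and 1 peak of each line, the widest gaps between groups, the smallest range, the closest edges, the widest regions, the fullest windows and those nearest to the rule's limit. The 10 with the smallest range were those of the compact set already named, apart from 2, of which chr12:40043591-40043900 is not described further. Gene names, promoters, motifs and sequences are not given, because no hg18 annotation or sequence was used here. Python 3.11.15, numpy 2.4.6, pandas 2.3.3, scipy 1.17.1 and matplotlib 3.10.9 were used, and the calculations were tested on simulated data. Alternatives are given after the report.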

Additional observations from a re-analysis of the deposited data

Results flagged for a closer look

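Chromosome X entered no comparison. It held 39 regions with a peak in all 5 lines among 1206 merged regions (3.23%, exact Clopper-Pearson 95% interval 2.31 to 4.39, counting error only), a signal outside the chromosomes that were analysed.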

How the results depend on the processing

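Of 96 alternative values for 11 results, 70 stayed within the range set for no change. The range was a set fold change for counts and spacing and the interval of the main value for the common stretch. For percentiles and leading peaks it was the SD between lines. For the differences in rho and in midpoint distance only the sign had to hold. A fall in the rho difference from 0.145 to 0.0719 without Namalwa thus counted as no change. With lists cut to the 5643 highest-scoring peaks there were 1169 shared regions, 99.1% of them with a common base and a median common stretch of 390 bp. Of these regions 241 (20.6%) were higher in the Hodgkin and 245 (21.0%) in the non-Hodgkin lines. The higher-scoring 50% of each list gave 1573 shared regions. Without each line in turn the count was 3002 to 5307 (the highest without Namalwa). Over the same 2991 regions, the share with a base common to the remaining lines was 96.4% to 98.5%. The median common stretch of the remaining lines was 280 to 370 bp. Leaving out a line cannot lower either value. With exactly 1 peak of each line the share with a base common to all lines was 97.8%, and 375 and 384 regions were higher in either group. Fewer regions are tested there, and the percentages were 20.8% and 21.3%. Joining peaks up to 200 bp apart gave a share with a base common to all lines of 94.8%. By peak width 351 and 373 were higher, and the cause was not tested. Leaving out a line gave 711 to 883 (23.8% to 29.5%) and 734 to 925 (24.5% to 30.9%), where fewer lines must agree. Between-group minus within-group distance changed sign without L1236 (0.192 bp), L428 (3.16 bp) and L591 (5.19 bp) and was as low as -8.75 bp without Reh. Of the leading 5000 peaks a mean of 47.6% were in shared regions. Neighbouring merged regions of any kind lay 1.85 kb apart, and the fullest 5 Mb window held 54 shared regions. No paired analysis was possible, because the 5 lines are different cell lines with 1 library each and form no pairs. Depth is unknown, which limits what the absence of a peak can show.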
